A study of Mus musculus with 15 samples.

Results

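Chemokines and their receptors were read in RNA from mouse brain tumours of 2 models. The family was taken by symbol: every gene named as a numbered CC ligand (Ccl), CXC ligand (Cxcl), CC receptor (Ccr) or CXC receptor (Cxcr), together with the CX3C ligand Cx3cl1. This gave 54 of the 24421 genes in the tables, of which 38 were ligands (24 CC, 13 CXC and Cx3cl1) and 16 were receptors (10 CC and 6 CXC). The atypical receptors, the XC pair, the receptor Cx3cr1 and the platelet chemokines Pf4 and Ppbp have other names, so they are described as related genes and not counted.

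Chemokines are small secreted proteins that bind heptahelical receptors coupled to inhibitory G proteins and steer the movement of leukocytes along a gradient. The CXC ligands that act on Cxcr2 attract neutrophils, those that act on Cxcr3 are induced by interferon and attract activated T cells, and many CC ligands attract monocytes through Ccr2. In the brain, neurons carry Cx3cl1 and microglia carry its receptor Cx3cr1, and Cxcl12 with Cxcr4 guides migrating progenitors and sits at the vessels. In gliomas these genes are studied because macrophages, microglia and lymphocytes make up part of the tumour mass.

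The 15 libraries were made from poly(A) RNA of tumour tissue and form 5 groups of 3. HGG means high-grade glioma, an aggressive glial cancer, and EPN means ependymoma, whose cells resemble the ventricle lining. The groups are HGG control, HGG Sox9-LOF (loss of function), HGG Sox9-GOF (gain of function), EPN control and EPN Sox9-GOF. The labels leave out the lesions that start each tumour, the way Sox9 was altered, the strain, age and sex of the mice and any pooling. They also do not state whether replicates are different animals, and p-values therefore measure only the spread among these samples, which may be technical. The same 3 HGG control libraries serve both HGG comparisons.

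Levels below are normalized counts, namely reads divided by 1 size factor per library, on 1 scale for all 15 libraries. Depth was 4665428 to 14119140 reads assigned to genes, and HGG control 2 was the shallowest library. Sox9 itself, a DNA-binding regulator of gliogenesis, was at 218, 285 and 310 in the HGG controls versus 739, 579 and 395 in the libraries labelled Sox9-LOF. HGG Sox9-GOF held 1275, 1537 and 1391, the EPN controls 1045, 1040 and 1189, and EPN Sox9-GOF 2055, 1834 and 2692. The libraries labelled Sox9-LOF thus held more Sox9 transcript than every HGG control, against their label. The summed level of 5 choroid plexus markers was 107900 in HGG control 1, 1021 in HGG control 2 and 162.6 in HGG control 3. It was also high in 1 library each of the groups labelled Sox9-LOF (24070 in replicate 3, 429 and 117 in the others) and HGG Sox9-GOF (9494 in replicate 3, 89.7 and 84.4), and ran from 36.1 to 180 in EPN. The marker Otx2 was at 0 throughout both EPN groups, and astrocyte and neuron markers were read in every group.

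Of the 54 genes, 35 had reads in every library and 24 had a mean level of at least 100 over the 15 libraries. A further 17 had a mean under 10, and 5 had no read in any library. Those 5 were Ccl26, the lymphoid tissue ligands Ccl21a, Ccl21b and Ccl21c, and Ccl27b. The genes of the last 4 exist as near-identical copies, so that the authors' counting may have dropped reads shared between them. For Ccl26, 0 reads allow up to 3 reads over the 15 libraries, and for the copies no statement on expression can be made.

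The highest mean level was that of Cx3cl1, the membrane-bound ligand of microglial Cx3cr1, at 2622. The interferon-induced Cxcr3 ligands Cxcl9 and Cxcl10 followed at 1543 and 1500, the B cell attractant Cxcl13 at 1095, and Cxcl16, the ligand of Cxcr6, at 970.5. Next came Cxcl14 at 702, the monocyte attractants Ccl8 at 634 and Ccl12 at 566, the Cxcr3 ligand Cxcl11 at 520.1, the Ccr2 ligand Ccl2 at 519 and the T cell attractant Ccl5 at 453. Divided by the annotated exon length, the order changed: Ccl8 stood first at 1240 per kilobase, followed by Ccl12 at 1055, Cxcl13 at 953, Cx3cl1 at 667 and Cxcl10 at 666. Cxcl10 and Cxcl11 overlap the annotated gene Art3, Cxcl16 overlaps Zmynd15, Ccl27a overlaps Il11ra1, Ccl25 overlaps Elavl1 and Cxcr5 overlaps Bcl9l, and the strand setting of the counting is not given, so reads from those neighbours cannot be told apart. Cxcl11 is annotated as a polymorphic pseudogene, a gene intact in some strains only, and the strain of these mice is not given.

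Group levels are given as mean ± SD (n = 3) in the order HGG control, HGG Sox9-LOF, HGG Sox9-GOF, EPN control and EPN Sox9-GOF. Cx3cl1 was at 2484 ± 2161, 2345 ± 917, 1866 ± 593, 3863 ± 1541 and 2554 ± 478. Cxcl13 was at 896 ± 782, 238 ± 86, 335 ± 352, 2579 ± 1966 and 1429 ± 1842, and Cxcl16 at 1131 ± 886, 366 ± 36.5, 870.0 ± 541, 1305 ± 559.7 and 1180 ± 707. In each of these ligands no group was apart from all the others. The Ccr2 ligands Ccl2 and Ccl12 were at 528 ± 439.5, 652 ± 334, 538 ± 440.5, 476 ± 276 and 402 ± 113 and at 346 ± 236, 659 ± 348, 379 ± 214, 758 ± 320.3 and 690.5 ± 224. Ccr2 itself was at 119.8 ± 104, 53 ± 41.7, 102 ± 88.1, 274 ± 207 and 184 ± 129. No one group was apart from all others in these 3 genes. Cxcl12, a ligand of stroma and vessels, was at 299.5 ± 173, 149 ± 32.4, 191 ± 57.5, 417 ± 186 and 278 ± 231, and its receptor Cxcr4 at 194 ± 93.6, 148 ± 14.9, 219 ± 47.9, 259 ± 38.9 and 231 ± 93.9. Cx3cr1 was at 1094 ± 581, 1346 ± 154, 2079 ± 978, 3357 ± 815 and 2099 ± 1412.

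**Figure D1:**
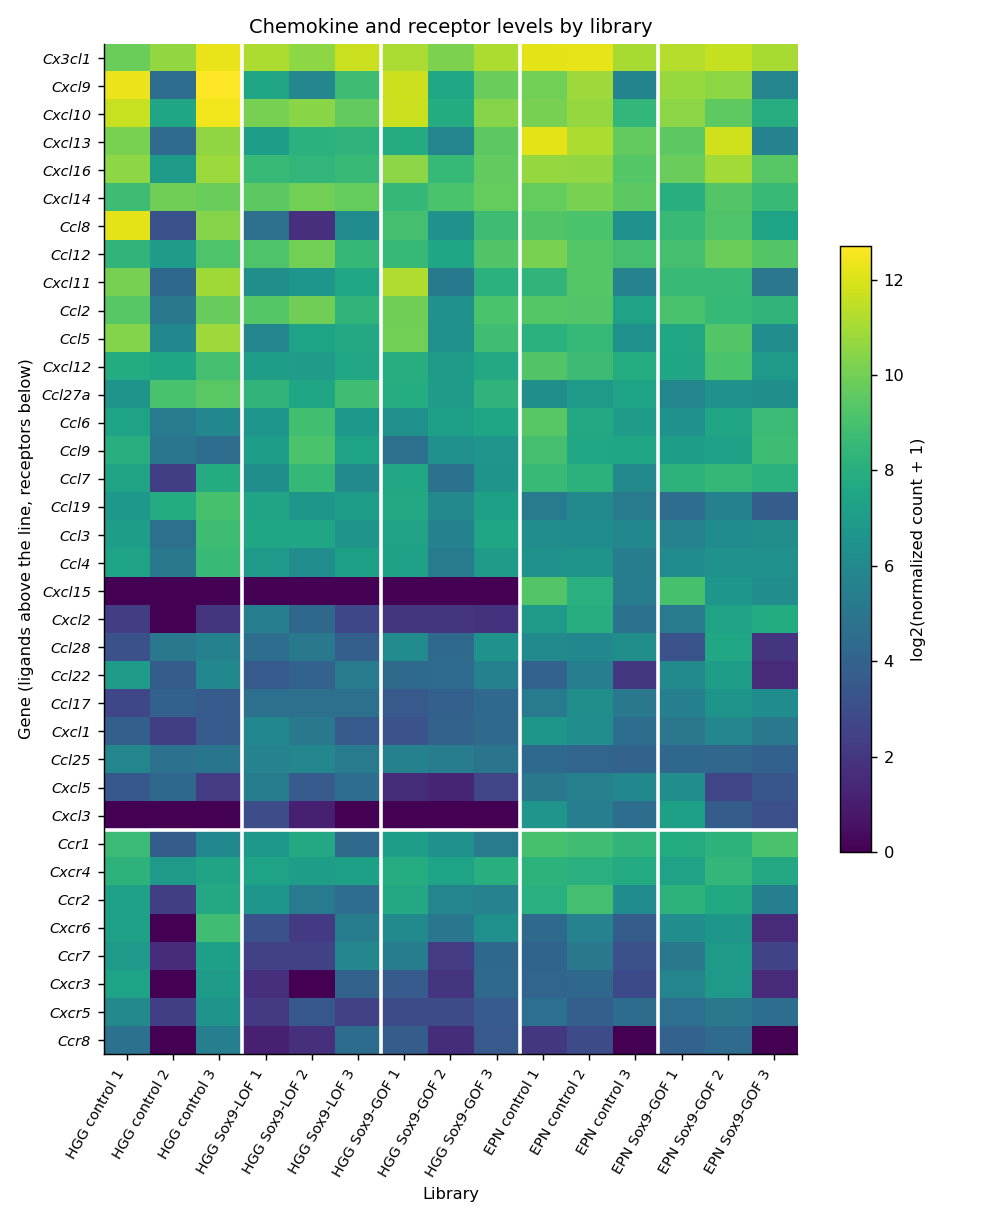
Level of 36 chemokine and receptor genes with a mean of at least 10 (rows, ligands above the line and receptors below, each by falling mean) in each of the 15 libraries (columns, groups parted by lines), as log2(normalized count + 1). Cxcl15 and Cxcl3 were at 0 in the HGG control and HGG Sox9-GOF libraries and had reads in all 6 EPN libraries, and HGG control 2 was low for most genes.

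Most ligands differed far more between the 3 libraries of a group than genes at large. Cxcl9 was at 5117, 22.6 and 6663 in HGG controls 1, 2 and 3, a ratio of 295 between the highest and the lowest. In HGG Sox9-GOF it was at 3409, 196 and 884, in the EPN controls at 1015, 1843 and 51.3, and in EPN Sox9-GOF at 1707, 1510 and 54.7. The libraries labelled Sox9-LOF held 177, 57.9 and 439. A single library was far below its replicates in 4 of the 5 groups, and all 5 groups overlapped.

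Cxcl10 ran in the same order within the HGG controls, at 3153, 180.4 and 5482, and Cxcl11 did too, at 1097, 18.5 and 1868. In the EPN controls Cxcl10 was at 1081, 1666 and 336.0 and Cxcl11 at 317, 647 and 48.2. Ccl5, which attracts T cells and monocytes, was at 1286, 59.5 and 1824 in the HGG controls versus 280, 361 and 80.9 in the EPN controls. Ccl8 ran from 8.20 in HGG control 2 to 4624 in HGG control 1. Cx3cl1 was steadier, at 917, 1585 and 4948 in the HGG controls and 4615, 4884 and 2091 in the EPN controls, and Cxcl14 steadier still, at 431, 982 and 893 and at 825, 1125 and 716.

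The spread was measured for the 37 family members with a mean of at least 10. Their median SD of log2(normalized count + 1) in the HGG controls was 1.82 against 0.456 for all 15109 genes with such a mean, and 35 of the 37 were above the median of all genes. The family median stood beside that of all genes at 0.778 against 0.315 for the libraries labelled Sox9-LOF, 0.897 against 0.299 for HGG Sox9-GOF, 0.825 against 0.257 for the EPN controls and 0.954 against 0.352 for EPN Sox9-GOF. Of the 30 most abundant members, 23 had their lowest HGG control value in replicate 2, 22 their lowest HGG Sox9-GOF value in replicate 2, 27 their lowest EPN control value in replicate 3 and 20 their lowest EPN Sox9-GOF value in replicate 3.

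The libraries that were low for these ligands were also low for T cell markers. The summed level of 7 T cell markers was 1442, 30.8 and 2857 in HGG controls 1 to 3, 578, 157.0 and 522 in HGG Sox9-GOF, 205, 292 and 66.9 in EPN control, and 496, 802 and 23.1 in EPN Sox9-GOF. None of the 7 was at 0 throughout a group. Interferon response genes, a list of 15, summed to 47700, 13440 and 48140 in the HGG controls. In bulk tissue fewer cells of a type and less RNA per cell cannot be told apart, and the part of T cells or interferon in the ligand levels was not tested.

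**Figure D2:**
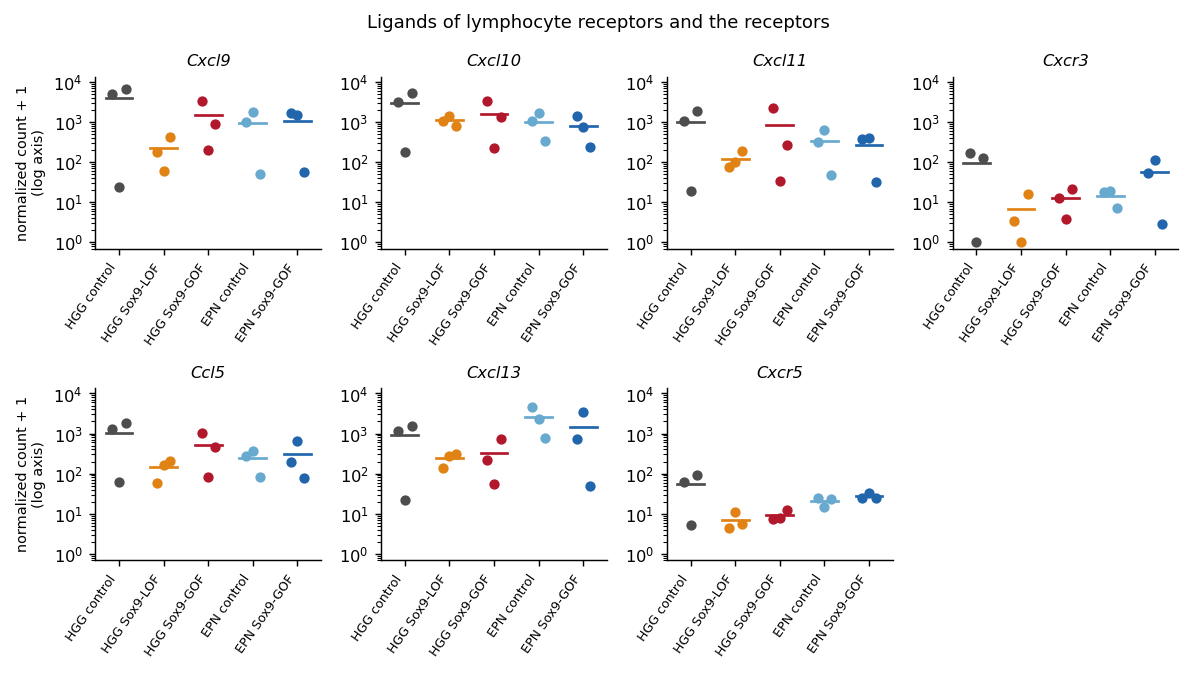
Normalized count plus 1 (log axis) of the Cxcr3 ligands Cxcl9, Cxcl10 and Cxcl11 with Cxcr3, of Ccl5 and of Cxcl13 with Cxcr5, in the 5 groups. Points are libraries and bars are group means (n = 3), and in Cxcl9 1 library of HGG control, EPN control and EPN Sox9-GOF lies between 22.6 and 54.7 while the other libraries of those groups lie at 1015 or more.

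Receptors followed their ligands in part. Cxcr3 was at 165, 0 and 126 in the HGG controls versus 54.1, 113 and 1.92 in EPN Sox9-GOF, and in both groups its lowest library was the one with the least Cxcl9. Cxcr6, the receptor of Cxcl16 on T cells, was at 151, 0 and 449 in the HGG controls, and Ccr7, the receptor of Ccl19 on dendritic and naive T cells, at 118, 2.05 and 141. Ccr2, the monocyte receptor of Ccl2 and Ccl12, was at 152, 4.10 and 204 in the HGG controls versus 268, 485 and 70.0 in the EPN controls. Cxcr4, the receptor of Cxcl12, was steadier and ran from 115 to 337 over the 15 libraries, and Cxcl12 ran from 116 to 603.

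Several receptors were close to the limit of detection. Cxcr2, which binds neutrophil-attracting ligands such as Cxcl2 and Cxcl3, ranged from 0.794 to 16.9. Ccr6, the receptor of Ccl20, ranged from 0 to 35.5 and Ccl20 from 0 to 3.97, and Ccr9, the receptor of Ccl25, ranged from 2.05 to 27.0 in a locus that overlaps 6 other annotated genes. Cxcr1 had 3 reads over the 15 libraries, Ccr3 had 12 and Ccr4 had 34. None of these genes passed the limma test in any comparison where its mean allowed one, and Cxcr1, Ccr3, Ccr4 and Ccl20 were too low to be tested.

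The comparison of the EPN controls with the HGG controls asks how the control tumours of the models differ. The neutrophil-attracting CXC ligands Cxcl15, Cxcl3 and Cxcl2 were higher in EPN, and Ccl19, a ligand of Ccr7 that draws dendritic cells and naive T cells, was lower. Of the 41 family members with a mean of at least 10 over the 6 libraries, 4 passed the test (limma on log2(normalized count + 1), Benjamini-Hochberg adjusted p under 0.05), 3 higher and 1 lower. That is 9.76% of the members, and 15.3% of all 15105 genes tested passed (9.51% higher and 5.83% lower). Transcripts of loci that collect ribosomal RNA reads also differed between these groups: Mir6236 was at 1635 to 3188 in the HGG controls and 121 to 255 in the EPN controls, and Lars2 at 7672 to 9900 and 1823 to 2772. Both overlapped between the Sox9-GOF groups, and Rn45s, the ribosomal RNA precursor, ran from 6327 to 102200 over the 15 libraries, highest in EPN Sox9-GOF 3. The part of RNA quality was not tested. A further 6 members had groups that did not overlap without passing, which made 10 of 41 with separate groups against 40.3% of all genes.

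Cxcl15, a CXC ligand first known from lung epithelium, had 0 reads in all 9 HGG libraries. In the EPN controls it was at 620.1, 270.5 and 40.5 and in EPN Sox9-GOF at 518, 101 and 73.9. All 6 EPN libraries were therefore above all 9 HGG libraries. Against a floor of 3 reads over the 3 HGG controls, its level was at least 362-fold higher in the EPN controls (853 reads). The fitted log2 fold change of 7.58 (SE 1.01, limma adjusted p = 0.00793) rests on the pseudocount and is no bound.

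Cxcl3, which acts on Cxcr2, had 0 reads in the HGG controls and in HGG Sox9-GOF and was at 7.01, 1.13 and 0 in the libraries labelled Sox9-LOF. It was at 97.2, 41.7 and 23.3 in the EPN controls and at 146, 12.2 and 7.68 in EPN Sox9-GOF. Its level in the EPN controls was at least 61.2-fold that of the HGG controls (fitted log2 fold change 5.55, SE 0.74, limma adjusted p = 0.00794). In this comparison Cxcl15 and Cxcl3, like Cxcl2, Cxcl1 and Ccl24 below, passed the filter on low values only through the EPN libraries, where they are high.

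Cxcl2, the macrophage-derived ligand of Cxcr2, was at 3.97, 0 and 2.84 in the HGG controls versus 111, 242 and 26.5 in the EPN controls. The groups did not overlap. The ratio of summed reads was 47.7 (95% counting interval 24.8 to 105) and the log2 fold change 5.09 (SE 1.01, limma adjusted p = 0.0230). Cxcl1, its close relative, was at 13.5, 4.10 and 11.4 against 104, 73.3 and 23.3, also without overlap, with a log2 fold change of 2.56 (SE 0.72, adjusted p = 0.0590) that did not pass. Cxcl5 was at 10.3, 18.5 and 3.55 against 32.8, 45.1 and 59.1 (log2 fold change 2.18, SE 0.64, adjusted p = 0.0669). Related copies such as Cxcl1, Cxcl2 and Cxcl3 can share reads, and how the counting split them is not given.

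These ligands lie side by side. Cxcl5, the platelet genes Ppbp and Pf4, Cxcl3, Cxcl15, Cxcl1 and Cxcl2 are 7 neighbours within 146.6 kilobases of mouse chromosome 5 (build mm10, positions 90759298 to 90905938). Pf4, platelet factor 4, was at 6.35, 0 and 2.84 in the HGG controls versus 101, 38.3 and 10.9 in the EPN controls, with no overlap between the 6 EPN and the 9 HGG libraries. The genes next to the run overlapped between the models: Rassf6 was at 0 to 4.51 in EPN and 0 to 7.10 in HGG, and Mthfd2l at 78.5 to 128 in EPN and 33.4 to 160.1 in HGG.

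**Figure D3:**
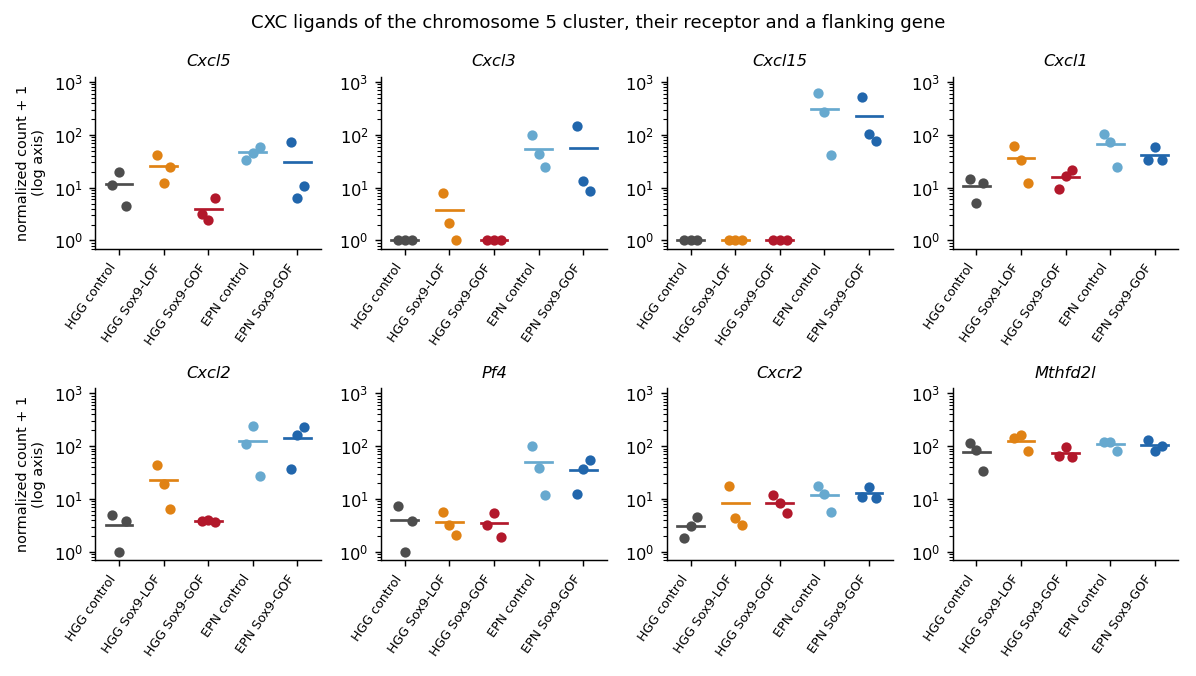
Normalized count plus 1 (log axis) of 5 CXC ligands of the chromosome 5 run, of the platelet gene Pf4, of Cxcr2, the receptor of Cxcl2 and Cxcl3, and of the neighbouring gene Mthfd2l, in the 5 groups. Points are libraries and bars are group means (n = 3), and in Cxcl15 all HGG libraries sit at 0 reads while the EPN libraries lie from 40.5 to 620.1.

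The bases before the start sites of 4 of these genes are shown because 3 of the 4 share a stretch. Cxcl5, Ppbp and Pf4 are not shown, and Cxcl5 is not among the members with a match listed below. The sequences are the 250 bases upstream of the RefSeq start (GRCm38.p6), 5′ to 3′ on the strand of the gene, with matches to the kappa B consensus, the binding motif of NF-kB, in capitals. Cxcl1 is at chr5:90890995-90891244, Cxcl2 at chr5:90903649-90903898, Cxcl3 at chr5:90785851-90786100 and Cxcl15 at chr5:90794284-90794533.
Cxcl1: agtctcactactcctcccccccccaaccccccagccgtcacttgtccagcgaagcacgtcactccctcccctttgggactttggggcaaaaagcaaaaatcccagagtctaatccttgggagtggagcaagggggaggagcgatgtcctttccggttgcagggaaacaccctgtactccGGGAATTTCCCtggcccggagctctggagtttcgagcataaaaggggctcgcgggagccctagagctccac
Cxcl2: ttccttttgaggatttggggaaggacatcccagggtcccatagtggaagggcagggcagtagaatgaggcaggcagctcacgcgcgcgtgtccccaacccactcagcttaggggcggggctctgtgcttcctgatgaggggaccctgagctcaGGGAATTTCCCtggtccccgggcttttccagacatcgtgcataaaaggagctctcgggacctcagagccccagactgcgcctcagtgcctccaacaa
Cxcl3: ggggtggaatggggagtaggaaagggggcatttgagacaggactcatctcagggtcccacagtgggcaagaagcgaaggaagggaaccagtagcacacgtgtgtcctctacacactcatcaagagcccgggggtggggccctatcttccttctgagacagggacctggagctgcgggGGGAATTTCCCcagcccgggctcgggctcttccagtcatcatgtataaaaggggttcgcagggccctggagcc
Cxcl15: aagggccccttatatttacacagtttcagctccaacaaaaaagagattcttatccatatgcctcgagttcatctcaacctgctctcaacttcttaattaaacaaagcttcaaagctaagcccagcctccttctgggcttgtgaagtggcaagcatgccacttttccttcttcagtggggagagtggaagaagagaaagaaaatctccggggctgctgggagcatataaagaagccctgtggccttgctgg
Cxcl1, Cxcl2 and Cxcl3 carry the same run GGGAATTTCC, beginning 71, 97 and 73 bases before the start, and no match was found in the window of Cxcl15. Both strands were searched over 300 bases (250 before and 50 after the start), and matches may overlap. The consensus occurred in 4.51% of the 32851 promoters searched and in 9 of the 38 family members with a promoter in the table, the others being Ccl20, Ccl27a, Ccl9, Ccr3, Ccr6 and Cxcl10. The first share counts promoters and the second counts genes with a match in any of their promoters, so the 2 are not like for like. A match describes letters and not binding.

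Of the 15 NF-kB subunits and feedback genes in the list, 0 were higher and 1 was lower in the EPN controls, and 4 were higher and 1 lower in EPN Sox9-GOF against HGG Sox9-GOF. With both directions counted, the list is below the share of all genes called, 15.3% and 40.7%. Among higher genes alone, 0 of 15 stood beside 9.51% of all genes between the controls. Between the Sox9-GOF groups 4 of 15 were higher, beside 19.6% of all genes, and 1 of 15 was lower, beside 21.2%. Fold changes were positive for 7 of 15 between the controls and 11 of 15 between the Sox9-GOF groups. The part of NF-kB in the ligand levels was not tested. The summed level of the 4 measured neutrophil markers was 6.15 to 8.73 in the HGG controls and 20.2 to 68.8 in the EPN controls. It was 10.5 to 29.4 in HGG Sox9-GOF and 38.2 to 78.5 in EPN Sox9-GOF, and none of the 4 was at 0 throughout a group. Only S100a8 and S100a9 were high enough to be tested, and 0 of these 2 passed between the controls (log2 fold changes 2.97 and 2.79, adjusted p = 0.0648 and 0.0626, groups separate) and 2 of 2 between the Sox9-GOF groups (2.02 and 2.07, adjusted p = 0.0153 and 0.0187). Mmp8, at 4.76, 0 and 0 against 4.23, 0 and 0, and Retnlg, at 0, 2.05 and 0.710 against 9.51, 0 and 0, overlapped between the controls. Between the Sox9-GOF groups Mmp8 overlapped, at 6.46, 12.5 and 0.877 in HGG against 2.88, 3.49 and 6.72 in EPN. Retnlg went the other way there, at 6.46, 1.47 and 0.877 in HGG against 0.721, 0 and 0 in EPN. The part of neutrophils in the ligand levels was not tested.

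Among the CC ligands, Ccl19 was at 107, 224 and 506 in the HGG controls versus 37.0, 66.5 and 37.3 in the EPN controls, with a log2 fold change of -2.32 (SE 0.59, limma adjusted p = 0.0463). Without any 1 of 5 of the 6 libraries this call was lost, with adjusted p-values up to 0.146. Ccl17, a ligand of Ccr4 made by dendritic cells, was at 5.55, 14.4 and 11.4 against 38.0, 77.8 and 32.7 (log2 fold change 2.13, SE 0.56, adjusted p = 0.0504), and Ccl24, known to draw eosinophils, at 3.17, 2.05 and 0 against 31.7, 15.8 and 7.78 (2.85, SE 0.89, adjusted p = 0.0769). Neither passed. DESeq2 called 9 members, beside 28.8% of all genes, and limma with the spread shared by all 15 libraries called 7, beside 27.9%. Without EPN control 2, 0 members passed, beside 368 of all 15124 genes, and without HGG control 2, 8 did, beside 1839 of 15055.

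The comparison of EPN Sox9-GOF with HGG Sox9-GOF shares no library with that of the controls. Of 37 members tested, 11 passed, 8 higher and 3 lower in EPN. That is 29.7% of the members, beside 40.7% of all 14964 genes (19.6% higher and 21.2% lower), and 12 members had separate groups beside 55% of all genes. With the shared spread 7 members passed, beside 43.1% of all genes, and without EPN Sox9-GOF 1, 4 passed, beside 5276 of 14995 genes. Cxcl15, Cxcl2, Cxcl3 and Ccl19 passed in both comparisons, which is 4 of the 4 called between the controls and 4 of the 11 called here. Of the 37 members tested in both, 30 had the same sign and 7 had separate groups in the same direction in both: Ccl17, Ccl19, Ccl25, Cxcl1, Cxcl15, Cxcl2 and Cxcl3. These shares, 81.1% and 18.9%, stand beside 70.1% and 22.6% of the 14747 genes tested in both. Here too Cxcl15, Cxcl3 and Cxcl2, and also Cxcl5 and Cxcr5, passed the filter on low values through EPN alone, so their calls in both comparisons are no independent support.

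Cxcl2 was at 2.87, 2.94 and 2.63 in HGG Sox9-GOF and at 36.8, 160.5 and 228 in EPN Sox9-GOF. The log2 fold change was 4.87 (SE 0.69, limma adjusted p = 0.00126), and the ratio of summed reads 46.8 (95% counting interval 25.9 to 94.3). Cxcl15 was at least 331-fold higher (fitted log2 fold change 7.31, adjusted p = 0.00039) and Cxcl3 at least 81.4-fold higher (4.68, adjusted p = 0.0115), though DESeq2 gave no adjusted p for Cxcl3 here. Both bounds pool the reads of 3 libraries. Cxcl3 was at 146 in EPN Sox9-GOF 1 and at 12.2 and 7.68 in replicates 2 and 3, so its bound rests mostly on 1 library. The bound of Cxcl15 leans on the same library, at 518 against 101 and 73.9. Cxcl1 was at 8.61, 15.4 and 20.2 against 31.7, 57.6 and 32.7 (1.42, SE 0.48, adjusted p = 0.0471). Cxcl5 overlapped here, at 2.15, 1.47 and 5.26 against 73.5, 5.23 and 9.60, and did not pass (2.22, SE 0.98, adjusted p = 0.11).

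Outside this cluster the higher members were the ligands Ccl17 and Ccl7 and the receptors Ccr1 and Cxcr5. Ccl17 was at 10.8, 13.9 and 19.3 in HGG Sox9-GOF and at 44.0, 95.9 and 71.1 in EPN Sox9-GOF, a log2 fold change of 2.15 (SE 0.44, adjusted p = 0.00632). Its level in all 6 EPN libraries, 32.7 to 95.9, was above that of all 9 HGG libraries, 5.55 to 25.0. Ccr1, a receptor of macrophages and neutrophils, was at 140.0, 83.7 and 37.7 against 225, 298 and 533 (2.10, SE 0.52, adjusted p = 0.0148). Between the controls Ccr1 overlapped, since HGG control 1 held 401 and the other HGG controls 12.3 and 60.4.

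Ccl7, a monocyte attractant that binds Ccr2, was at 192, 26.4 and 95.6 against 293, 347 and 272 (1.92, SE 0.64, adjusted p = 0.0458). Cxcr5, the B cell receptor of Cxcl13, was at 6.46, 6.61 and 11.4 against 23.8, 32.3 and 23.1 (1.61, SE 0.46, adjusted p = 0.0263). B cell markers moved with it: the summed level of 5 markers was 31.6, 10.3 and 192 in HGG Sox9-GOF and 1836, 385 and 110.4 in EPN Sox9-GOF, with 1 of the 4 tested members called, and the part of B cells was not tested. Its ligand Cxcl13 was at 221, 53.6 and 730.4 against 718, 3521 and 48.0, and the groups overlapped.

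The CC ligands Ccl19, Ccl27a and Ccl25 were lower in EPN Sox9-GOF. Ccl19 was at 205, 61.6 and 147 against 22.4, 47.1 and 12.5 (log2 fold change -2.33, SE 0.61, adjusted p = 0.0184). Ccl27a, a ligand of Ccr10 known from skin, was at 233, 125 and 303 against 56.2, 87.2 and 79.7 (-1.48, SE 0.38, adjusted p = 0.0169). Ccl25, a ligand of Ccr9 known from thymus and gut, was at 47.4, 38.9 and 28.9 against 18.0, 17.4 and 14.4 (-1.14, SE 0.39, adjusted p = 0.0493). In Ccl25 all 6 EPN libraries, 14.4 to 19.0, were below all 9 HGG libraries, 26.7 to 57.9. The calls of Cxcl1, Ccl25, Ccl7 and Cxcr5 were lost under 10, 8, 7 and 6 of 13 alternatives.

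Neuron and astrocyte markers moved with these: in EPN Sox9-GOF 5 of 5 neuron markers and 4 of 5 astrocyte markers were lower. The summed neuron level was 1606 to 2645 against 16060 to 23270 in HGG Sox9-GOF, and the summed astrocyte level 4431 to 21260 against 21490 to 88720. Between the controls 0 of either list passed, with 0 of 5 neuron markers and 5 of 5 astrocyte markers positive, while Ccl19 passed there as given above. Ccl27a and Ccl25 did not pass between the controls, with log2 fold changes of similar size (-1.52, SE 0.76, adjusted p = 0.215, groups overlapping, and -1.003, SE 0.45, adjusted p = 0.174, groups separate). The part of these cells in the ligand levels was not tested.

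Over all 15 libraries, 4 of the 37 members with a mean of at least 10 separated the models, with Ccl17, Cxcl15 and Cxcl3 higher and Ccl25 lower in EPN. That is 10.8% of the members against 17.5% of all genes with such a mean, of which 10.1% were above and 7.46% below. Cxcl15 and Cxcl3 reached that mean only through the EPN libraries, where they are high. The gap of Cxcl3 was narrow, with 7.682 in EPN Sox9-GOF 3 against 7.015 in the library labelled Sox9-LOF 1. Ccl17 in the libraries labelled Sox9-LOF lay just under the EPN range, at 24.6, 25.0 and 24.5.

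**Figure D4:**
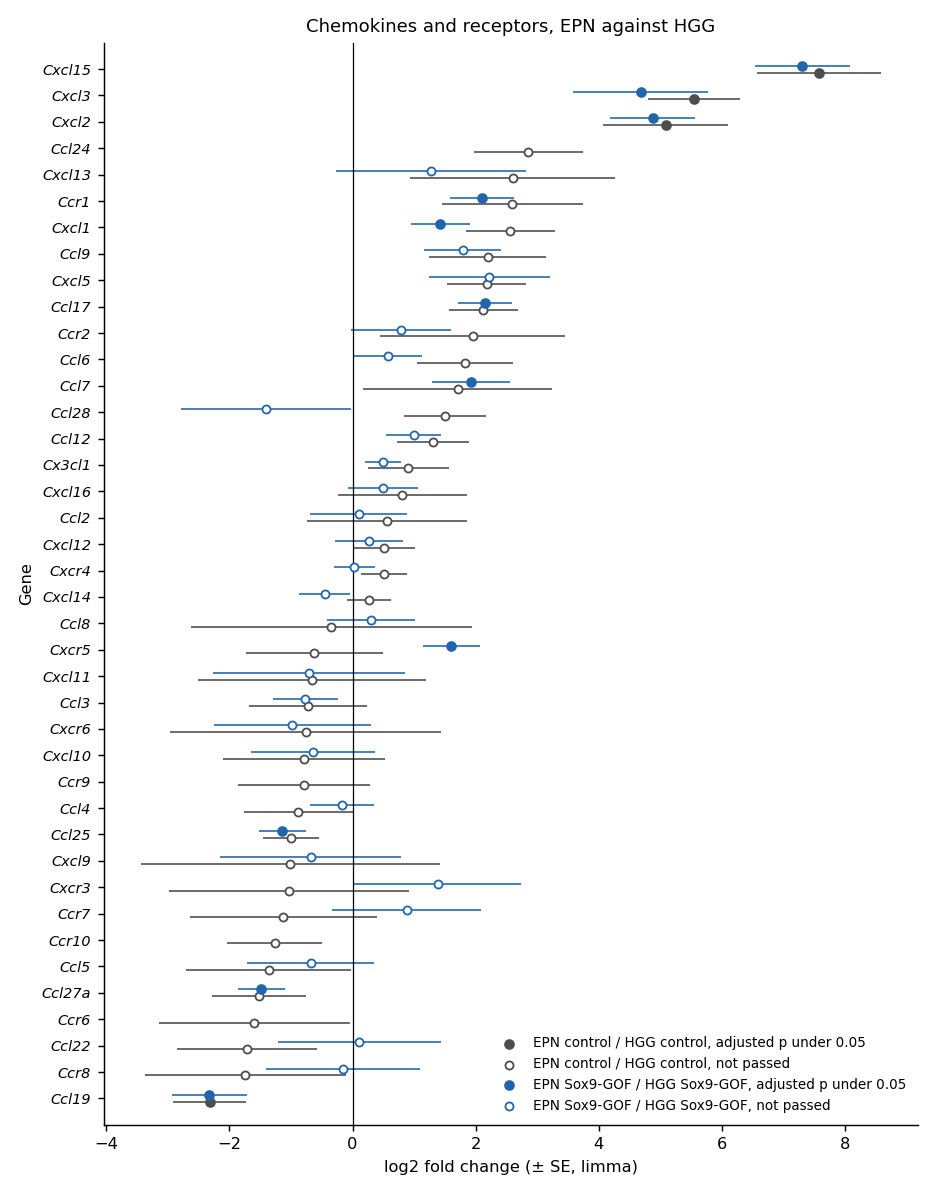
Log2 fold change (limma, ± SE) of chemokines and receptors in EPN control against HGG control (grey) and in EPN Sox9-GOF against HGG Sox9-GOF (blue), n = 3 per group, ordered by the first. Filled points passed an adjusted p of 0.05, and Cxcl15, Cxcl2, Cxcl3 and Ccl19 are filled in both.

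The Cxcr3 ligands did not pass in either comparison of the models. The log2 fold changes of Cxcl9, Cxcl10 and Cxcl11 ran from -1.01 to -0.66 between the controls and from -0.71 to -0.64 between the Sox9-GOF groups, with 0 of 3 called. The median over all members tested was 0.51 between the controls and 0.34 between the Sox9-GOF groups, against 0.0025 and 0.04 over all genes. Without HGG control 2 the first median was -0.69, and without EPN Sox9-GOF 2 the second was -0.04, so each sign rests on 1 library.

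Related genes outside the family are from a list of 11, of which 10 were tested. Ackr3, the scavenging receptor that binds Cxcl12, was at 140, 211 and 126 in the HGG controls versus 1980, 992 and 1005 in the EPN controls (log2 fold change 3.01, SE 0.35, limma adjusted p = 0.00564). In HGG Sox9-GOF it was at 174, 187 and 203 and in EPN Sox9-GOF at 1230, 1623 and 1947 (3.06, SE 0.21, adjusted p = 0.000121). All 6 EPN libraries were above all 9 HGG libraries, whose highest value was 308. Its ligand Cxcl12 and the other Cxcl12 receptor, Cxcr4, did not pass the test in either comparison. Endothelial markers moved with it, with 3 of 5 higher between the controls and 5 of 5 between the Sox9-GOF groups, and pericyte markers with 4 of 4 and 1 of 4. Summed endothelial levels were 431 to 1064 in the HGG controls and 2196 to 3216 in the EPN controls, and the part of vessels was not tested.

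Cx3cr1, the microglial receptor of Cx3cl1, was at 676, 849 and 1757 in the HGG controls versus 4208, 3278 and 2584 in the EPN controls (1.71, SE 0.39, adjusted p = 0.0337). Between the Sox9-GOF groups it was at 1314, 1742 and 3181 against 1596, 3694 and 1007 (-0.10, SE 0.51, adjusted p = 0.895). Microglia and macrophage markers moved with it: of 8 markers, Cx3cr1 included, 8 had positive fold changes and 2 passed between the controls, the other being Tmem119, with sums of 4929 to 13390 in HGG and 12730 to 22620 in EPN. Between the Sox9-GOF groups 1 of the 8 was higher and 1 lower, with sums of 10360 to 15470 and 9328 to 21620, and the part of microglia was not tested. Pf4 had log2 fold changes of 3.58 (SE 1.09, adjusted p = 0.0726) and 3.21 (SE 0.74, adjusted p = 0.0108). Ackr1, which holds chemokines on venules, was lower between the Sox9-GOF groups (-1.31, SE 0.43, adjusted p = 0.0435) and did not pass between the controls (0.78, adjusted p = 0.527), and Ackr4, which binds Ccl19 and Ccl25, did not pass (2.71, adjusted p = 0.0546, and 0.60, adjusted p = 0.454). Whether these effects differ between the 2 comparisons was not tested.

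Of 30 genes that signal below the receptors, 3 were higher and 0 lower between the controls, and 5 were higher and 5 lower between the Sox9-GOF groups. With both directions counted, the list did not exceed the share of all genes called, 15.3% and 40.7%, and the genes below are examples. Plcb3, a phospholipase activated by G protein subunits, was at 403, 785 and 332 against 2939, 3457 and 3297 (2.77, SE 0.33, adjusted p = 0.00611) and at 236, 493 and 468 against 4795, 4181 and 4553 (3.57, SE 0.29, adjusted p = 0.000167). Grk5, a kinase that phosphorylates active receptors, was higher in both (0.90, adjusted p = 0.0412, and 0.89, adjusted p = 0.0133). The inhibitory G protein gene Gnai3 was higher between the controls (1.01, adjusted p = 0.0455) and Gnai2 between the Sox9-GOF groups (1.07, adjusted p = 0.00433). The arrestin gene Arrb1 and the G protein gene Gng2 were lower between the Sox9-GOF groups (-2.18, adjusted p = 0.000511, and -2.59, adjusted p = 0.000377).

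The comparison of the libraries labelled Sox9-LOF with the HGG controls asks what the Sox9 manipulation changed in HGG. No member passed: 0 of 35 tested, as 0% of all 14861 genes passed limma, and 1 member had an unadjusted p under 0.05 against 17.3% of all genes. A pair of members, Cxcl2 and Ccl17, had separate groups, both higher, beside 24.5% of all genes (12.8% higher). Cxcl2, with a mean of 2.27 in the controls, passed the filter on low values only through the libraries labelled Sox9-LOF. Cxcl2 was at 43.3, 18.2 and 5.57 against 3.97, 0 and 2.84 in the controls (log2 fold change 2.67, SE 1.06, limma adjusted p = 0.273). Ccl17 was at 24.6, 25.0 and 24.5 against 5.55, 14.4 and 11.4 (1.24, SE 0.55, adjusted p = 0.312).

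The lowest fold change was that of Ccl8, at 24.6, 2.27 and 67.9 against 4624, 8.20 and 1354 (-4.43, SE 2.35, adjusted p = 0.384). By DESeq2, 4 members were called lower, namely Ccl8 (adjusted p = 0.0214), Cxcl9 (0.0251), Ccl5 (0.0427) and Cxcr5 (0.0445), beside 4.72% of all genes called lower. Cxcr5 passed the filter on low values only through the controls. In each of the 4 at least 1 HGG control library lay within or below the range of the libraries labelled Sox9-LOF. Fold changes were negative for 7 of 7 T cell and 4 of 4 tested B cell markers, with 0 called by limma and, by DESeq2, 3 of the 4 B cell and 0 of the 7 T cell markers called lower, and B cell markers summed to 7.95 to 40.1 against 14.4, 741 and 832 in the controls. Neutrophil markers summed to 167 in the library labelled Sox9-LOF 1, which also held the most Cxcl1 and Cxcl2 of that group, and their part was not tested.

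The median over the 35 members was -0.25. It was -0.93 without HGG control 2 and 0.37 without HGG control 3, so its sign rests on which control is kept. edgeR called 0 members here and in both comparisons of Sox9-GOF with control, as it called 0% of all genes in each.

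In HGG Sox9-GOF against the same controls, 0 of 37 members passed, as 0% of all 15092 genes. Of these, 1 had an unadjusted p under 0.05, beside 22.7% of all genes, and 1 had separate groups, beside 30.5% (15.2% lower). Both counts refer to Ccr10, the receptor of Ccl27a, at 2.15, 0.734 and 4.38 against 36.5, 14.4 and 7.10 (-2.46, SE 0.84, adjusted p = 0.158). It passed the filter on low values only through the controls, where it is high. Its group sums were 9 and 63 reads, and its locus overlaps Cntnap1. It was called by DESeq2 (adjusted p = 0.0350) and by limma with the spread shared by all 15 libraries (adjusted p = 0.0280, beside 7.84% of all genes called lower), and Cxcr5, which likewise entered through the controls, was called lower by DESeq2 (-2.70, adjusted p = 0.0451), beside 7.66% of all genes. In the libraries labelled Sox9-LOF, which share these controls, Ccr10 was at 1.17, 2.27 and 2.23.

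The most abundant ligands overlapped between HGG Sox9-GOF and control. Cx3cl1 was at 2170, 1182 and 2246 against 917, 1585 and 4948 (-0.08, SE 0.63), Cxcl10 at 3287, 223 and 1347 against 3153, 180.4 and 5482 (-0.53, SE 1.50) and Ccl2 at 973, 91.7 and 549.8 against 682, 32.8 and 871 (0.46, SE 1.44). The median over the 37 members was -0.12, and it was -1.09 without HGG control 2, 0.30 without HGG control 1, 0.43 without HGG control 3 and 0.31 without HGG Sox9-GOF 2. The SEs of these ligands leave changes of several fold in either direction undetectable.

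In EPN Sox9-GOF against the EPN controls, 0 of 39 members passed, as 0% of all 14591 genes. Of these, 2 had an unadjusted p under 0.05, beside 15.1% of all genes, and 1 had separate groups, beside 22% (12.5% lower). Cxcl14, a CXC ligand made by epithelia and by neural cells, was at 251, 631 and 385 against 825, 1125 and 716 (-1.10, SE 0.34, adjusted p = 0.202), a fold of 2.14 downward. Ccl24 was at 3.60, 7.85 and 0.960 against 31.7, 15.8 and 7.78 (-1.92, SE 0.80, adjusted p = 0.319), and it passed the filter on low values only through the controls. DESeq2 called 0 members, beside 5.68% of all genes.

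Astrocyte markers stood lower with Cxcl14: their sum was 8192, 21260 and 4431 in EPN Sox9-GOF and 34250, 29180 and 28920 in the EPN controls. Neuron markers stood lower too, with sums of 1606 to 2645 against 4250 to 9100. In both lists limma called 0 of 5, while DESeq2 called 3 of 5 astrocyte and 4 of 5 neuron markers lower. Endothelial and pericyte markers all had negative fold changes, with 0 called by limma. The part of these cells was not tested. The chromosome 5 ligands overlapped, with log2 fold changes of 0.35 (SE 0.92) for Cxcl2, -0.23 (SE 1.09) for Cxcl15, -0.47 (SE 0.58) for Cxcl1, -0.82 (SE 1.09) for Cxcl3 and -1.37 (SE 0.90) for Cxcl5. Ackr1 and Ackr4 had separate groups, both lower (-1.40, adjusted p = 0.190, and -2.13, adjusted p = 0.207), and did not pass.

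**Figure D5:**
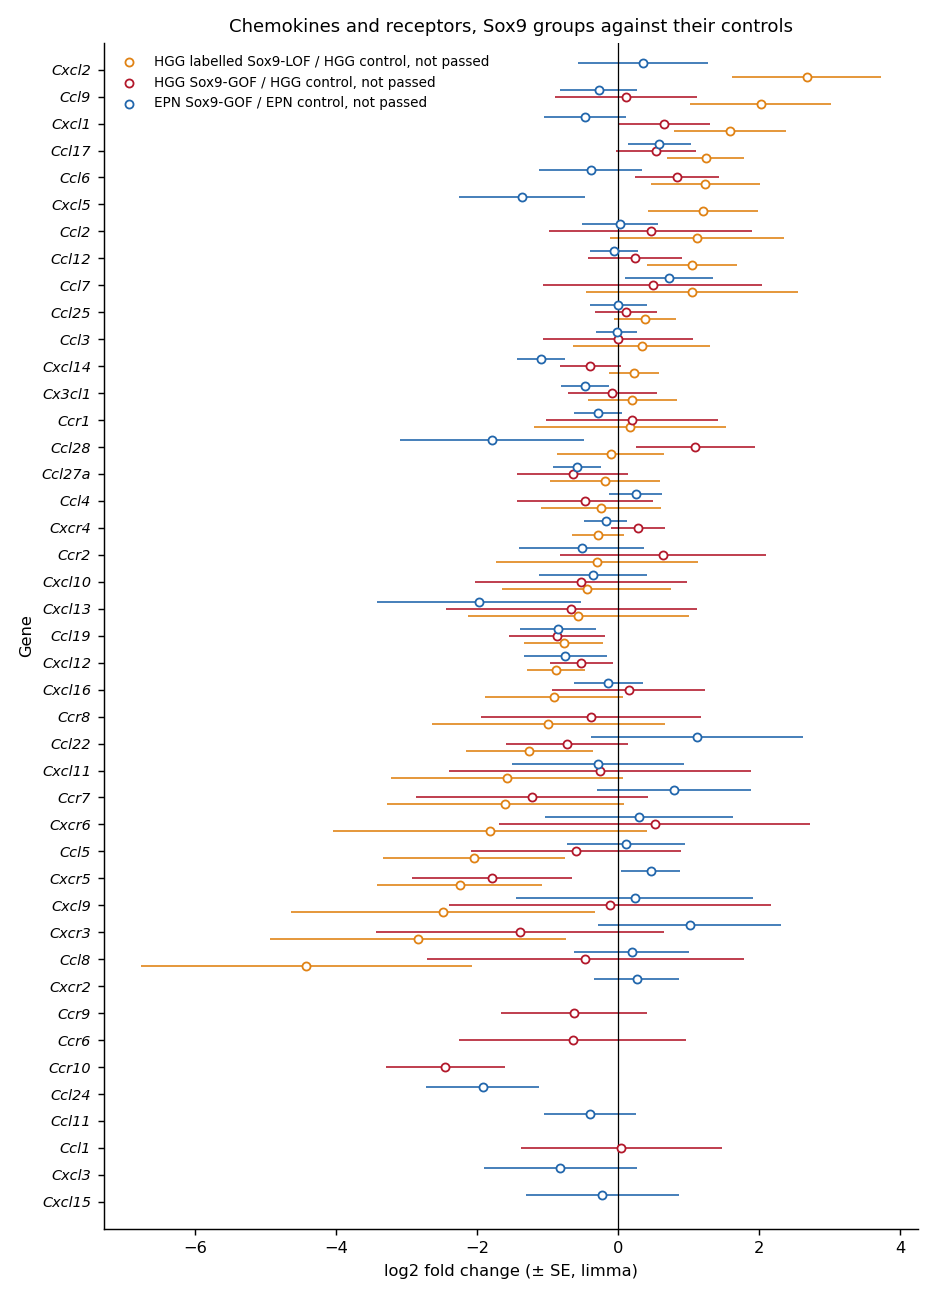
Log2 fold change (limma, ± SE) of chemokines and receptors in the libraries labelled Sox9-LOF (orange) and HGG Sox9-GOF (red) against the same HGG controls, and in EPN Sox9-GOF against EPN controls (blue), n = 3 per group, ordered by the first. All points are open, since 0 members passed an adjusted p of 0.05 in any of the 3 comparisons.

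The difference between the Sox9-GOF effect in EPN and that in HGG was tested as a contrast of 4 groups. Of 38 members, 0 passed, beside 6.07% of all 15145 genes, and 0 had an unadjusted p under 0.05, beside 27.1%. The smallest p-values were those of Cxcr5, with a difference of 2.25 on the log2 scale (SE 1.25, adjusted p = 0.273), and of Ccl28, an epithelial ligand of Ccr10, with -2.89 (SE 1.73, adjusted p = 0.311). By DESeq2, Cxcr5 (3.16, adjusted p = 0.0313) and Cxcr3 (5.12, adjusted p = 0.0474) were called higher, beside 7.92% of all genes, and edgeR called 0, beside 5.37%. Cxcr3 rests on HGG controls of 165, 0 and 126 and on EPN Sox9-GOF libraries of 54.1, 113 and 1.92.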

How the data were processed

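RNA of 15 mouse tumour samples was sequenced, 3 in each of 5 groups taken from the sample titles. The 3 deposited tables of 6 libraries each hold a signal per gene that the authors made by dividing read counts by 1 size factor per library: every value of the deposited tables came to a whole number of reads, within 0.001 read, once divided by that library's factor (100% of values). The HGG control reads are the same in both HGG tables. The submitters' processing notes list the build mm10 and, without saying what each did, DESeq2 1.30.1, STAR 2.5.0a, MultiQC 1.11 and FastQC 0.11.7. For the counting tool, the strand setting and the annotation, the entry is: not given in the sources used here.

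Reads were recovered from the deposited signal (4665428 to 14119140 per library, median 10578708). Printed levels, and the comparisons between models, use these reads rescaled over all 15 libraries by median of ratios. Each comparison of Sox9-altered with control tumours used its own table's scale. Genes with a mean of at least 10 over the libraries of a fit were tested with limma 3.58.1 (R 4.3.3, trended variance) on log2(normalized count + 1), with Benjamini-Hochberg adjustment over all genes tested and a threshold of 0.05. This scale understates the change of low genes. Intervals of read ratios and the floor of 3 reads cover counting error only. The scripts were tested on simulated data.

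Alternatives were DESeq2 1.42.0 and edgeR 4.0.16 on recovered reads, TMM scaling, a pseudocount of 8, no filter beyond a mean above 0, a spread shared by all 15 libraries, the replicate number as a block, and leaving out each library. The HGG Sox9-GOF and control libraries of the same number had correlations of deviations from group means of 0.178, 0.443 and 0.224. In the other comparisons these correlations reached 0.297. The numbers come from the titles, which state no pairing, and the main tests were unpaired. The block changed no call in HGG Sox9-GOF against control.

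The members and lists were chosen with earlier results of these data known. Members named with statistics were those past the threshold, up to 15 by adjusted p, and where fewer than 8 passed, members whose groups did not overlap until 8 were named. The 12 highest members and the ligand and receptor pairs were named by level, except 1 gene that stays in the counts and is not reported here, and others are named as examples chosen after their values were seen. Promoters and start sites come from RefSeq (GRCm38.p6) and gene overlaps from GENCODE M21, which 53 of the 54 members matched.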

Additional observations from a re-analysis of the deposited data

How the results depend on the processing

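In the comparisons of Sox9-altered with control tumours, limma called 0 members, and 0 to 0 with any library left out. DESeq2 called 4 members in the libraries labelled Sox9-LOF, 2 in HGG Sox9-GOF and 2 in the difference between the Sox9-GOF effects, and a spread shared by all 15 libraries called 1 in HGG Sox9-GOF. In the difference between effects 0 to 1 were called with a library left out, 1 of them without HGG control 2, beside 604 of 15127 genes. Between the controls of the models the 4 calls became 9 by DESeq2 and 7 with the shared spread, and 0 to 8 with a library left out (0 without EPN control 2, 2 without EPN control 1, 7 without HGG control 1, 8 without HGG control 2). Of all genes, 368 of 15124, 645 of 15099, 3633 of 15030 and 1839 of 15055 were called there, in the same order. Without EPN control 2 the adjusted p was 0.0556 for Cxcl15, 0.0581 for Cxcl3 and 0.107 for Cxcl2. Between the Sox9-GOF groups the 11 calls became 7 with the shared spread and 4 to 10 with a library left out (4 without EPN Sox9-GOF 1, 6 without HGG Sox9-GOF 1, 7 without HGG Sox9-GOF 3). Of all genes, 5276 of 14995, 5228 of 14922 and 4691 of 14886 were called there, in the same order. With the replicate number as a block, 2 members were called between the controls, beside 1142 of 15105 genes. Between the Sox9-GOF groups the block left 8 called, beside 5472 of 14964 genes. In both comparisons of the models, and in the Sox9-LOF and EPN Sox9-GOF comparisons, correlations of deviations ran from -0.280 to 0.297. In every comparison the titles give the samples only a shared number and state no pairing. The cause of these shifts was not tested. Of 292 values of 23 named fold changes under alternatives, 228 kept direction and side of the threshold, 52 lost the call, 12 gained it and 0 reversed. Cxcl15, Cxcl2 and Ccl17 passed under all 13 alternatives between the Sox9-GOF groups, while Cxcl1 lost its call under 10, Ccl25 under 8, Ccl7 under 7 and Cxcr5 under 6. Groups of 3 libraries with a wide spread and low reads in receptors limit what could be detected.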
